A study of Homo sapiens with 8 samples.

Results

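Amino acid transport and serine synthesis were followed through 10 genes, chosen by name with earlier results of these data known: the transporter genes SLC7A5, SLC3A2, SLC1A5 and SLC7A11, the asparagine synthetase gene ASNS, the serine synthesis genes PHGDH, PSAT1 and PSPH, and the mitochondrial one-carbon genes SHMT2 and MTHFD2. All 10 were found, once each, among the 52576 genes of the deposited table, and all 10 were among the 13979 genes tested. Because the list was drawn up after results of the same comparisons had been seen, the tests below describe these libraries and are not independent support for a common direction.

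The cells were NCI-H2009, an established human lung adenocarcinoma line, and every group carried dCas9-KRAB. In this fusion a cleavage-dead Cas9, brought to a site by a guide RNA, carries the KRAB repressor domain. The 8 libraries formed 4 groups of 2: e3 guide 2, e3 guide 1, a non-targeting guide without a match in the human genome, and no guide RNA. Both e3 guides are directed at the enhancer e3, and the libraries without an e3 guide are the controls. Cells of a single line were used, the labels do not say whether they were a clone or a pool, and separate cultures are not stated for libraries of a group. The p-values therefore measure only a spread among these libraries, which within a group may be technical. Where both e3 guides or both controls are taken as a single group, that spread also holds the differences between them.

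Levels are RPKM, reads scaled to gene model length and library depth. The depths inferred from the values of single-exon genes lay between 3875080 and 5754470 reads per library. MYC, a growth-promoting transcription factor studied here as the gene of that enhancer, averaged 39.6 ± 3.87 RPKM with the e3 guides and 81.6 ± 9.20 RPKM in the controls (SD, n = 4 each). The first principal component, with 38.9% of the variance, placed the no-guide libraries at 36.9 and 38.4 and the other 6 between -18.5 and -5.74. Of the markers fixed for the line, all 6 epithelial genes reached 1 RPKM, and 5 of 8 lung adenocarcinoma lineage genes did, among them NKX2-1, while SFTPC and SFTPA1 were listed at 0 in every library. None of the neuroendocrine, immune or endothelial markers in the table reached 1 RPKM in any library. Of the squamous markers 3 of 5 did (KRT6A, SOX2 and TP63), with DSG3 at 0 throughout, and their summed level was 24.2 to 32.3 RPKM with the e3 guides, 14.7 to 15.8 RPKM with the non-targeting guide and 25.1 to 28.0 RPKM without a guide. For KRT6A all e3 libraries (19.9 to 24.2 RPKM) lay above all controls (6.98 to 10.01 RPKM). KRT5, under 1 RPKM throughout, had the same order (0.177 to 0.481 RPKM against 0 to 0.144 RPKM). SOX2 did not share it. Its e3 libraries (3.12 to 6.68 RPKM) spanned the non-targeting pair (4.52 and 5.28 RPKM) and lay far below the no-guide pair (19.5 and 17.4 RPKM). TP63 in the e3 libraries (0.799 to 1.25 RPKM) exceeded the non-targeting pair (0.381 and 0.405 RPKM) but overlapped the no-guide pair (0.948 and 0.703 RPKM). Of the fibroblast markers 1 of 5 did (COL1A1), with COL3A1 and DCN at 0 throughout, and their sum was 6.15 to 7.18 RPKM with the e3 guides, 5.06 to 5.76 RPKM with the non-targeting guide and 3.33 to 4.55 RPKM without a guide. The part of these markers in the results below was not tested.

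Amino acids cross the plasma membrane through carriers that exchange or co-transport them. SLC7A5 (LAT1) and SLC7A11 (xCT) are light chains that each pair with the heavy chain SLC3A2 (CD98hc), the first to import leucine and other large neutral amino acids in exchange for glutamine, the second to import cystine in exchange for glutamate. SLC1A5 (ASCT2) carries glutamine and other small neutral amino acids. PHGDH, PSAT1 and PSPH make serine from a glycolytic intermediate in successive steps, SHMT2 splits serine into glycine and a one-carbon unit on folate in the mitochondrion, and MTHFD2 oxidizes that unit. In many cell types these genes are induced through the transcription factor ATF4 when amino acids run short, and several are also known targets of MYC.

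All 10 genes had a negative log2 change with the e3 guides against the controls, as did 53.4% of genes tested, and 6 of them passed the test. SLC7A5, SLC3A2, SLC1A5, PSAT1, PSPH and SHMT2 fell, by between 0.30 and 0.70 on the log2(RPKM + 1) scale, a scale that understates the change of low genes. ASNS, PHGDH, SLC7A11 and MTHFD2 missed the threshold, at log2 changes of -0.43, -0.28, -0.63 and -0.21. The test was limma's moderated test of the 4 e3 libraries against the 4 controls, with Benjamini-Hochberg adjustment over all genes tested and a call at an adjusted p under 0.05. Over all genes tested, 2.58% were called lower and the median log2 change was -0.02, beside -0.40 for the 10. For 8 of the 10 every e3 library lay below every control library, which held for 7.51% of genes tested; SLC7A11 and MTHFD2 overlapped. With any single library left out between 1 and 4 of the 10 were called, SLC7A5 each time. In those fits 1.29% to 4.15% of genes tested were called in either direction, against 5.2% with all libraries. With a correlation estimated between libraries of a group only SLC7A5 was called, beside 1.83% of genes tested in either direction. Under that correlation the limma adjusted p was 0.0548 for SHMT2 and between 0.105 and 0.129 for SLC1A5, PSPH, PSAT1 and SLC3A2. With the mean of each group as 1 sample none of the 10 was called in limma, beside 0.00715% of genes tested, and 7 had an unadjusted p under 0.05, beside 10.9% of genes tested.

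**Figure D1:**
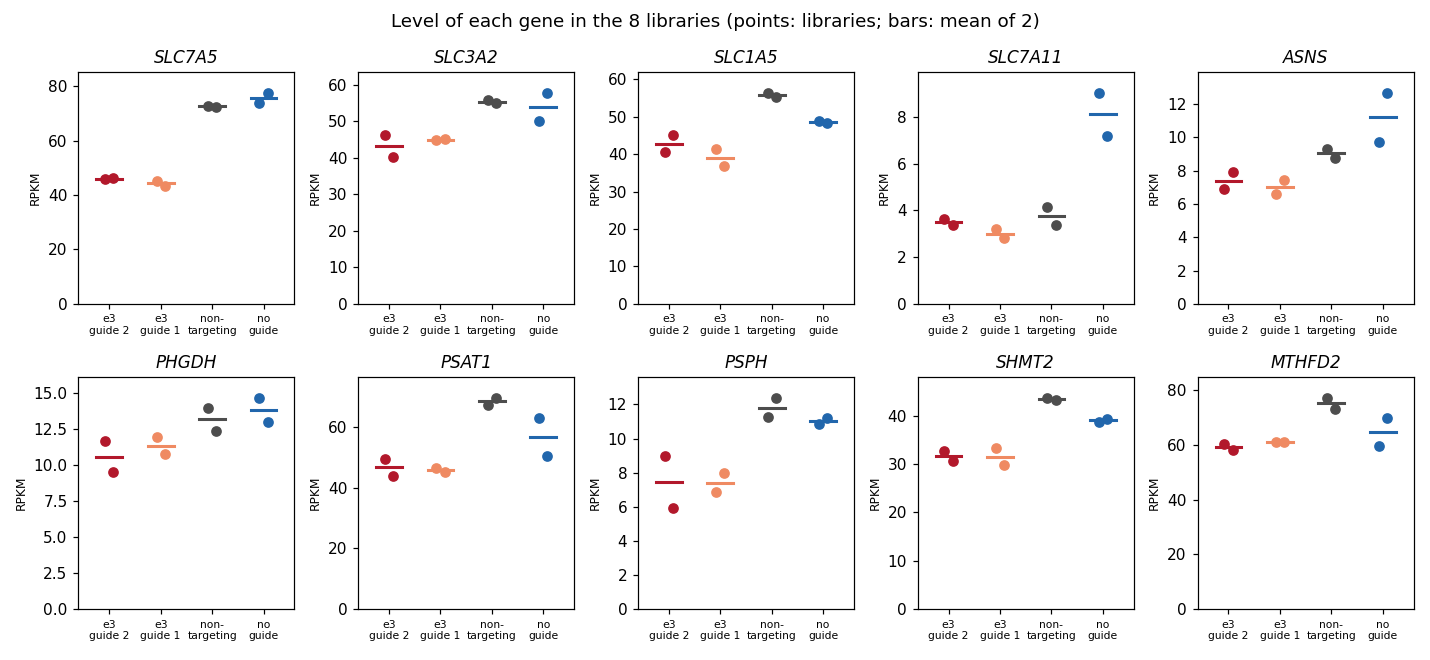
Level of each of the 10 genes in RPKM (vertical axes, each starting at 0) in the 2 libraries of each group; points are libraries and bars are means of 2. SLC7A5 lay between 43.3 and 46.1 RPKM in the e3 libraries and between 72.5 and 77.5 RPKM in the controls, while SLC7A11 with the non-targeting guide lay near the e3 libraries.

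SLC7A5 (ENSG00000103257.4, chromosome 16), the light chain that imports leucine, moved furthest relative to its spread. It stood at 46.0 and 46.1 RPKM with guide 2, at 45.3 and 43.3 RPKM with guide 1, at 72.8 and 72.5 RPKM with the non-targeting guide, and at 73.8 and 77.5 RPKM without a guide. The e3 libraries were thus close to one another and well below the controls, which were also close to one another. The e3 mean of 45.2 ± 1.301 RPKM was 60.9% of the control mean of 74.2 ± 2.31 RPKM (SD, n = 4 each; log2 change -0.70 ± 0.05 SE, limma adjusted p = 0.000583). Between 770 and 1588 reads lay behind each value. In a bulk library, fewer cells expressing a gene and less RNA of it per cell cannot be told apart. A pseudogene with near-identical sequence, SLC7A5P1 (ENSG00000260727.1), averaged 0.689 RPKM with the e3 guides and 2.95 RPKM in the controls, and the sources used here do not say how reads shared between copies were assigned.

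The promoters of SLC7A5, SLC1A5 and ASNS are shown because a search found in them a motif linked to MYC or to ATF4. RefSeq (GRCh38.p14) gave 12 start windows for 7 of the 10 genes, each from 250 bases before to 50 bases after a start; PSPH, SHMT2 and SLC7A11 had none. The search covered both strands for CACGTG, the E-box that MYC dimers bind, and for TGATGNAA, the core of the amino acid response element, whose form TGATGCAA was also counted by itself. CACGTG was in 2 of the 12 windows and in 7.26% of all 35116 promoter windows. TGATGNAA was in 3 of the 12 and in 3.62% of all, and TGATGCAA in 1 of the 12 and in 0.866% of all. The sequences below are the 150 bases before a start, on the gene's strand, with the match in capitals.
SLC7A5, chr16:87869508-87869657, minus strand: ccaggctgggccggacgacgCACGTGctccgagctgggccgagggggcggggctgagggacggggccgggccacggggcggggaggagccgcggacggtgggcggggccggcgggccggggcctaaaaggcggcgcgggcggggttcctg
SLC1A5, chr19:46787294-46787443, minus strand: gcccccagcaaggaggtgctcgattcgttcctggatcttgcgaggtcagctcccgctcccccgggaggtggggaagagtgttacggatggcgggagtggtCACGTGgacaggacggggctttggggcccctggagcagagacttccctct
SLC1A5, chr19:46784815-46784964, minus strand: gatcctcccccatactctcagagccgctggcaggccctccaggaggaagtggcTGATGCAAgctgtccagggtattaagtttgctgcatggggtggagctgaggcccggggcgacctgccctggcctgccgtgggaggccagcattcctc
ASNS, chr7:97872409-97872558, minus strand: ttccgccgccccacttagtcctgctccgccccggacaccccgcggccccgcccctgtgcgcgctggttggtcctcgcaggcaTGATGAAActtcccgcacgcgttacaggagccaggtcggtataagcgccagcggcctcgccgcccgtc
The matches begin 130 bases before the SLC7A5 start, 50 and 97 bases before 2 different SLC1A5 starts, and 68 bases before the ASNS start. The last match for TGATGNAA lay 38 bases after an SLC3A2 start, on the other strand. A match shows only that these letters are present.

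SLC3A2 (ENSG00000168003.11, chromosome 11), the shared heavy chain, fell less than SLC7A5. Its levels were 46.3 and 40.1 RPKM with guide 2, 44.9 and 45.0 RPKM with guide 1, 55.7 and 55.0 RPKM with the non-targeting guide, and 50.04 and 57.7 RPKM without a guide. All e3 libraries were below all controls, but the nearest values, 46.3 RPKM with guide 2 and 50.04 RPKM without a guide, were not far apart. The e3 mean was 80.7% of the control mean (44.1 ± 2.73 and 54.6 ± 3.25 RPKM, SD, n = 4 each; log2 change -0.30 ± 0.07 SE, limma adjusted p = 0.0397). Since RPKM is per length, the chains can be set against each other within a library. The ratio of SLC7A5 to SLC3A2 was 0.995 and 1.15 with guide 2, 1.01 and 0.962 with guide 1, 1.31 and 1.32 for the non-targeting guide, and 1.47 and 1.34 without a guide. The light chain RNA was thus about level with that of the heavy chain in the e3 libraries and above it in every control. The difference in the log2 ratio was -0.41 (exact two-sided permutation p = 0.0286, the smallest that the 70 arrangements of single libraries allow, and 0.0571 adjusted over the 2 ratios tested).

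**Figure D2:**
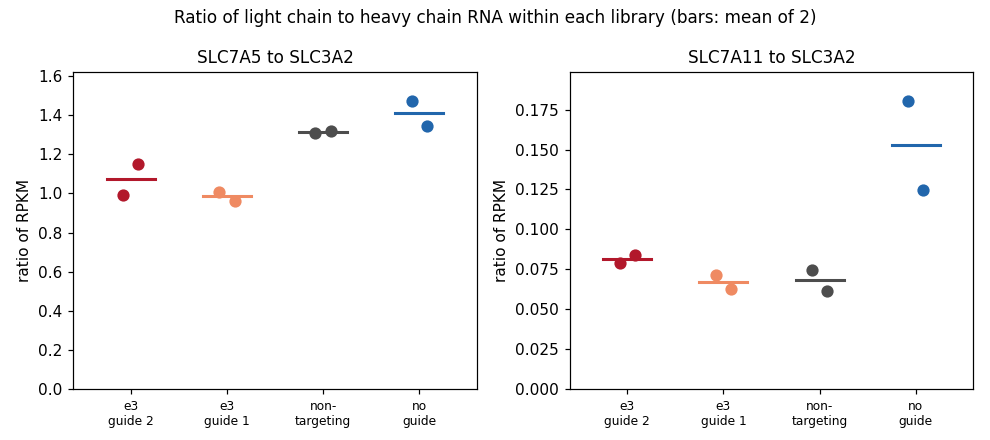
Ratio of RPKM of each light chain gene to the heavy chain gene SLC3A2 within a library (vertical axes, starting at 0), by group; points are libraries and bars are means of 2. The ratio of SLC7A5 to SLC3A2 averaged 1.03 with the e3 guides and 1.36 in the controls, while that of SLC7A11 to SLC3A2 was highest without a guide.

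The other light chains that pair with SLC3A2 were chosen by that property, outside the rule for named genes. SLC7A6, a light chain for cationic and neutral amino acids, averaged 9.26 ± 1.43 RPKM with the e3 guides and 10.96 ± 1.14 RPKM in the controls (SD, n = 4 each) and did not pass (log2 change -0.23, limma adjusted p = 0.308). SLC7A7 stayed under 1 RPKM in every library, and SLC7A8 and SLC7A10 were listed at 0 in all 8. SLC7A5 was the most abundant light chain RNA per length in all 8 libraries.

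SLC1A5 (ENSG00000105281.6, chromosome 19), the glutamine carrier, also fell. It stood at 40.5 and 45.0 RPKM with guide 2, at 41.2 and 36.9 RPKM with guide 1, at 56.3 and 55.2 RPKM with the non-targeting guide, and at 48.7 and 48.3 RPKM without a guide. The controls formed pairs, with the non-targeting libraries highest, and the e3 libraries lay below both pairs. The e3 mean was 78.5% of the control mean (40.9 ± 3.31 and 52.1 ± 4.22 RPKM, SD, n = 4 each; log2 change -0.34 ± 0.08 SE, limma adjusted p = 0.0435). Its paralog SLC1A4 (ASCT1), a carrier of alanine, serine and cysteine, rose. SLC1A4 had 5.58 and 7.26 RPKM with guide 2, 5.43 and 5.28 RPKM with guide 1, 3.31 and 2.95 RPKM with the non-targeting guide, and 2.74 and 3.04 RPKM without a guide (log2 change 0.77, limma adjusted p = 0.0106). The paralogs thus passed in opposite directions, with SLC1A4 at the far lower level.

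SLC7A11 (ENSG00000151012.9, chromosome 4), the cystine importer, followed another pattern. It had 3.64 and 3.36 RPKM with guide 2, 3.21 and 2.81 RPKM with guide 1, 4.15 and 3.38 RPKM with the non-targeting guide, and 9.04 and 7.20 RPKM without a guide. The no-guide libraries stood apart, and the e3 and non-targeting libraries overlapped. With the non-targeting guide it was 46.4% of the no-guide level (log2 change -0.93 ± 0.16 SE, limma adjusted p = 0.0094), a call that ended without the second non-targeting library (-0.82, adjusted p = 0.0653) and without the first no-guide library (-0.79, adjusted p = 0.0648). The summed level of the 8 lung lineage markers was 46.8 to 55.6 RPKM with the e3 guides, 42.6 to 52.4 RPKM with the non-targeting guide and 69.8 to 70.2 RPKM without a guide, and its part in the SLC7A11 difference was not tested. With the e3 guides it fell against no guide alone (-1.10 ± 0.15, adjusted p = 0.00206) and did not pass against the non-targeting guide alone (-0.16 ± 0.15, adjusted p = 0.601). Each guide passed against the mean of both control groups, by -0.54 with guide 2 and -0.71 with guide 1 (limma adjusted p = 0.0412 and 0.0212), a mean that the no-guide libraries raise. Its ratio to SLC3A2 was 0.0786 and 0.0839 with guide 2, 0.0716 and 0.0624 with guide 1, 0.0746 and 0.0614 for the non-targeting guide, and 0.181 and 0.125 without a guide. The difference in this ratio between the e3 libraries and the controls did not exceed the spread (exact two-sided permutation p = 0.343, 0.343 adjusted over both ratios).

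ASNS (ENSG00000070669.12, chromosome 7) makes asparagine from aspartate and glutamine. Its levels were 6.88 and 7.90 RPKM with guide 2, 6.63 and 7.45 RPKM with guide 1, 9.32 and 8.77 RPKM with the non-targeting guide, and 9.73 and 12.7 RPKM without a guide. No e3 library reached a control, and the second no-guide library was the highest. The mean with the e3 guides was 71.3% of the control mean (7.22 ± 0.574 and 10.1 ± 1.75 RPKM, SD, n = 4 each), with a log2 change of -0.43 ± 0.12 that did not pass (limma adjusted p = 0.071). Between 81 and 150 reads lay behind each value. Counting error alone would give a plain log2 ratio of the summed reads a standard error of 0.098, if every read were independent. That ratio has no 1 added, so its error is not on the scale of the change above. For PSPH, the other gene with so few reads, that error was 0.0997.

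Of the 3 serine synthesis enzymes, PSAT1 and PSPH fell and PHGDH did not pass. PHGDH (ENSG00000092621.6, chromosome 1), the entry enzyme, had 11.6 and 9.48 RPKM with guide 2, 11.9 and 10.8 RPKM with guide 1, 13.9 and 12.3 RPKM with the non-targeting guide, and 14.6 and 12.9 RPKM without a guide. The e3 and control libraries did not overlap, but the highest e3 value, 11.9 RPKM, lay close under the lowest control, 12.3 RPKM. PHGDH reached 81.3% of its control mean and did not pass (log2 change -0.28 ± 0.09 SE, limma adjusted p = 0.123).

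PSAT1 (ENSG00000135069.8, chromosome 9), the aminotransferase of the second step, fell. It had 49.7 and 44.0 RPKM with guide 2, 46.4 and 45.3 RPKM with guide 1, 67.5 and 69.6 RPKM with the non-targeting guide, and 63.0 and 50.4 RPKM without a guide. The second no-guide library lay just above the highest e3 library, while the other 3 controls were well above. The e3 mean was 74.0% of the control mean (46.4 ± 2.42 and 62.6 ± 8.60 RPKM, SD, n = 4 each; log2 change -0.42 ± 0.10 SE, limma adjusted p = 0.0439). Of the 3 serine enzymes PSAT1 had by far the highest RNA level per length.

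PSPH (ENSG00000146733.9, chromosome 7), the phosphatase that releases serine, had 8.98 and 5.94 RPKM with guide 2, 6.84 and 8.003 RPKM with guide 1, 11.2 and 12.4 RPKM with the non-targeting guide, and 10.8 and 11.2 RPKM without a guide. The guide 2 libraries differed most from each other, yet all e3 libraries were below all controls. Its mean was 65.2% of the control mean (7.44 ± 1.33 and 11.4 ± 0.660 RPKM, SD, n = 4 each; log2 change -0.57 ± 0.12 SE, limma adjusted p = 0.0305). A near copy, PSPHP1, averaged 0.553 RPKM with the e3 guides and 0.886 RPKM in the controls.

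SHMT2 (ENSG00000182199.6, chromosome 12), the mitochondrial enzyme that feeds serine carbon to folate, fell by 0.37 ± 0.07 SE (log2, limma adjusted p = 0.0182). It had 32.6 and 30.6 RPKM with guide 2, 33.3 and 29.9 RPKM with guide 1, 43.6 and 43.3 RPKM with the non-targeting guide, and 38.8 and 39.3 RPKM without a guide. Both control pairs were tight and the e3 libraries lay below each, at 76.6% of the control mean. MTHFD2 (ENSG00000065911.7, chromosome 2), which acts next, had 60.2 and 58.2 RPKM with guide 2, 61.2 and 61.0 RPKM with guide 1, 77.1 and 73.3 RPKM with the non-targeting guide, and 59.5 and 69.9 RPKM without a guide. The first no-guide library lay among the e3 libraries. MTHFD2 fell when the non-targeting guide was the sole control (log2 change -0.32 ± 0.06 SE, limma adjusted p = 0.0183) and did not pass with both controls (-0.21 ± 0.08, adjusted p = 0.168) or against no guide (-0.10 ± 0.07, adjusted p = 0.415).

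The cytosolic counterparts, chosen for their paralogy outside the rule for named genes, did not pass. SHMT1 averaged 15.9 ± 1.22 RPKM with the e3 guides and 19.0 ± 4.70 RPKM in the controls (SD, n = 4 each; log2 change -0.21, limma adjusted p = 0.464). MTHFD1 averaged 26.2 ± 3.01 and 28.8 ± 1.89 RPKM in the same order (SD, n = 4 each; log2 change -0.14, limma adjusted p = 0.423). SHMT1 differed between the controls, with 15.9 and 14.1 RPKM for the non-targeting guide and 23.4 and 22.5 RPKM without a guide (log2 change -0.59, limma adjusted p = 0.0075), whereas SHMT2 did not pass there (0.15, adjusted p = 0.242). With the e3 guides against no guide alone, SHMT1 fell (log2 change -0.51, limma adjusted p = 0.00777), as did SHMT2 (-0.30, adjusted p = 0.0258). Against the non-targeting guide alone SHMT1 did not pass (0.08, adjusted p = 0.701). MTHFD1 passed against neither control alone. Whether a mitochondrial gene and its cytosolic paralog changed unequally was not tested.

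Each control was also used alone. Against the non-targeting guide alone, SLC7A5, SLC3A2, SLC1A5, PSAT1, SHMT2 and MTHFD2 fell and 4 did not pass, beside 3.54% of all genes tested called lower. Every e3 library lay below both non-targeting libraries for 9 of the 10, all but SLC7A11, and for 16.3% of genes tested. Against no guide alone, SLC7A5, SLC7A11, ASNS and SHMT2 fell and 6 did not pass, beside 8.03% of all genes tested called lower. Every e3 library lay below both no-guide libraries for 9 of the 10, all but MTHFD2, and for 22.6% of genes tested. SLC7A5 and SHMT2 were the members called against each control alone. These comparisons share the e3 libraries. Without either non-targeting library, no member was called against the one that remained (limma, where the lone library is assumed to vary like the others), beside 6 and 15 of the 13979 genes tested. In each of these fits 7 of the 10 had an unadjusted p under 0.05, beside 15.3% and 15.4% of genes tested, and the log2 changes of SLC7A5 were -0.67 and -0.68.

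**Figure D3:**
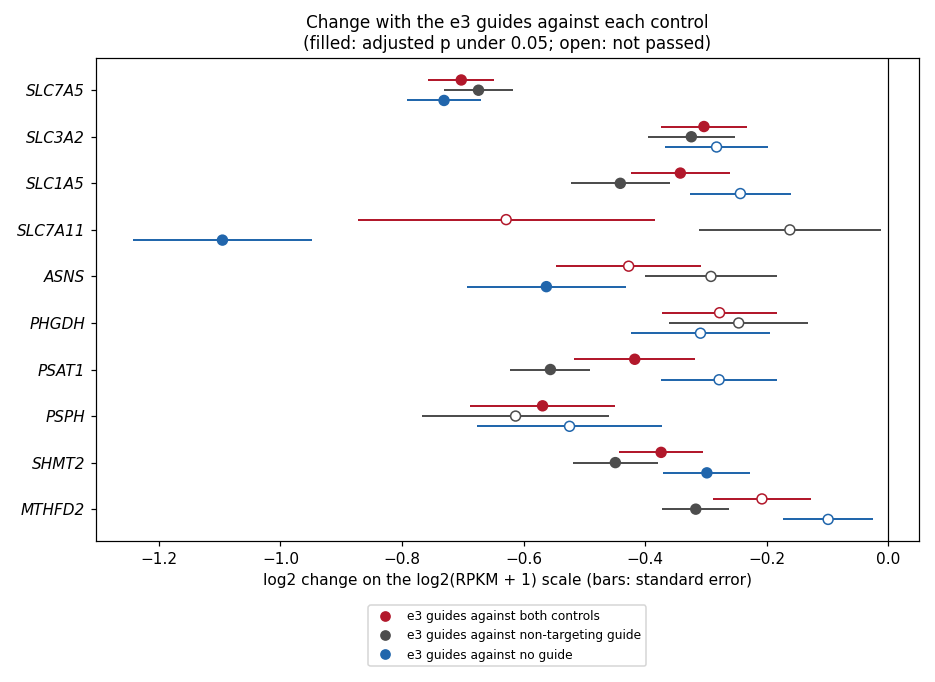
Log2 change of each gene with the e3 guides against both controls, the non-targeting guide alone and no guide alone (horizontal axis, log2(RPKM + 1) scale); points are estimates, bars standard errors, and filled points passed at an adjusted p under 0.05. SLC7A5 lay between -0.73 and -0.67 in all 3 comparisons, while SLC7A11 lay at -1.10 against no guide and at -0.16 against the non-targeting guide.

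Between the controls 1 of the 10 was called, beside 12.4% of all genes tested in either direction and 5.81% lower, so that the share is near the background. With the non-targeting guide against no guide, SLC7A11 fell, as given above, and the other 9 did not pass, with log2 changes between -0.27 for ASNS and 0.28 for PSAT1. SLC7A5 and SLC3A2 were near level between the controls (-0.06 ± 0.06 and 0.04 ± 0.09 SE), and MYC was higher with the non-targeting guide (0.28 ± 0.05 SE, limma adjusted p = 0.0133).

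Of the 10, 7 fell with guide 2 alone against the mean of the controls (SLC7A5, SLC3A2, SLC1A5, SLC7A11, PSAT1, PSPH and SHMT2) and 5 fell with guide 1 alone (SLC7A5, SLC1A5, SLC7A11, PSAT1 and SHMT2). The background was 7.62% of genes tested called lower with guide 2 and 4.03% with guide 1, and both comparisons share the control libraries. The SLC7A5 log2 change was -0.67 ± 0.05 for guide 2 and -0.73 ± 0.05 for guide 1 (SE, limma adjusted p = 0.000116 and 0.000135). The guides were also set against each other. For guide 2 against guide 1, none of the 10 was called in limma, beside 0.0286% of all genes tested. None of the 10 had an unadjusted p under 0.05, beside 10.4% of all genes tested. The differences of the 10 ran from -0.10 ± 0.13 for PHGDH to 0.17 ± 0.16 for SLC7A11 (SE), a spread of estimates that does not show the guides to act alike.

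Other genes of amino acid handling were described through 5 lists. Of 23 tested genes for further amino acid transporters, 3 rose, none fell and 20 did not pass, with a median log2 change of 0.10. Over all genes tested, 2.63% were called higher. At an unadjusted p under 0.05 in limma, 3 of the 23 were lower, and the 3 that rose were among those higher. Over all genes tested, 22.2% reached that p in either direction. The lower share by itself was not computed, so these counts of lower genes have no matching background. In the lists below, the count of lower genes at that p was 4 of 19 for glycine and folate genes and 3 of 23 for the amino acid response. It was 7 of 18 for other non-essential amino acids and glutathione, and 3 of 22 for signals to mTORC1. Besides SLC1A4, SLC38A10, a member of the SLC38 family, rose to 52.8 ± 2.73 RPKM with the e3 guides, against 42.1 ± 0.900 RPKM in the controls (SD, n = 4 each; log2 change 0.32, limma adjusted p = 0.0182). SLC6A14, a broad sodium and chloride coupled carrier, rose to 3.09 ± 0.462 RPKM with the e3 guides, against 1.04 ± 0.527 RPKM in the controls (SD, n = 4 each; log2 change 1.03, limma adjusted p = 0.0258). SLC43A2, a facilitated carrier of large neutral amino acids, did not pass (log2 change 0.63, limma adjusted p = 0.105).

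Of 19 tested genes of glycine and folate one-carbon metabolism, AHCY fell, beside 2.58% of all genes tested called lower, and 18 did not pass, with a median log2 change of -0.06. AHCY, which clears S-adenosylhomocysteine after methylation reactions, had 82.2 and 76.1 RPKM with guide 2, 83.9 and 86.9 RPKM with guide 1, 103.5 and 106.6 RPKM with the non-targeting guide, and 104.2 and 108.8 RPKM without a guide. Its groups were far apart compared with their spread (log2 change -0.36, limma adjusted p = 0.0106). MTRR, which reactivates methionine synthase, MAT2A, which makes S-adenosylmethionine, and DLD, a shared dehydrogenase subunit, did not pass, at -0.31, -0.23 and -0.23.

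ATF4, which induces many amino acid genes, had 117.9 and 109.7 RPKM with guide 2, 111.1 and 121.4 RPKM with guide 1, 127.9 and 124.6 RPKM with the non-targeting guide, and 114.5 and 119.9 RPKM without a guide. The groups overlapped, and it did not pass (log2 change -0.08 ± 0.06 SE, limma adjusted p = 0.46). ATF4 is controlled largely through translation, which RNA levels do not show. Of 23 tested genes of the amino acid response, VEGFA rose, XPOT fell and 21 did not pass, beside 2.63% of all genes called higher and 2.58% lower, with a median log2 change of 0.00. The controls differed in this list. With the non-targeting guide against no guide, 6 of the 23 were called higher and 0 lower, beside 12.4% of genes tested in either direction. With the e3 guides, 8 were higher and 1 lower against no guide alone (16.7% in either direction). Against the non-targeting guide alone, 1 was higher and 2 lower (6.84%). VEGFA, an angiogenic factor that hypoxia also induces, averaged 89.3 ± 9.74 RPKM with the e3 guides and 38.4 ± 16.0 RPKM in the controls (SD, n = 4 each; log2 change 1.29, limma adjusted p = 0.0242), and it also differed between the controls (1.06). XPOT, a tRNA exporter, changed by -0.37 (adjusted p = 0.0404), and EIF4EBP1 and ATF3 did not pass, at -0.34 and 0.88.

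Of 18 tested genes for other non-essential amino acids and glutathione, GOT1, the cytosolic aspartate aminotransferase, fell and 17 did not pass, beside the same 2.58% over all genes, with a median log2 change of -0.17. GOT1 averaged 19.1 ± 1.59 RPKM with the e3 guides and 24.7 ± 0.883 RPKM in the controls (SD, n = 4 each; log2 change -0.36, limma adjusted p = 0.0316). ASS1, the argininosuccinate synthase gene, GCLM, a subunit of the enzyme that starts glutathione synthesis, and CBS, which begins cysteine synthesis from homocysteine, did not pass, at -0.82, -0.42 and -0.32. ASS1 and GCLM, like SLC7A11, fell with the non-targeting guide against no guide (log2 changes -0.89 and -0.44, limma adjusted p = 0.0215 and 0.0439). In that comparison 6 of the 18 were called lower and 1 higher, beside 5.81% of genes tested called lower. Against no guide alone, 6 were lower with the e3 guides (8.03% of genes tested), and 1 against the non-targeting guide alone (3.54%). Against the mean of the controls, 7 were lower with guide 2 (7.62%) and 3 with guide 1 (4.03%). Of 22 tested genes that carry amino acid signals to mTORC1, SEH1L, a subunit of the GATOR2 complex, fell by 0.36 (log2, limma adjusted p = 0.0395) and 21 did not pass, a share also to be read against 2.58%. WDR24, MLST8 and RRAGD had log2 changes of -0.42, -0.30 and 0.22 and did not pass.

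**Figure D4:**
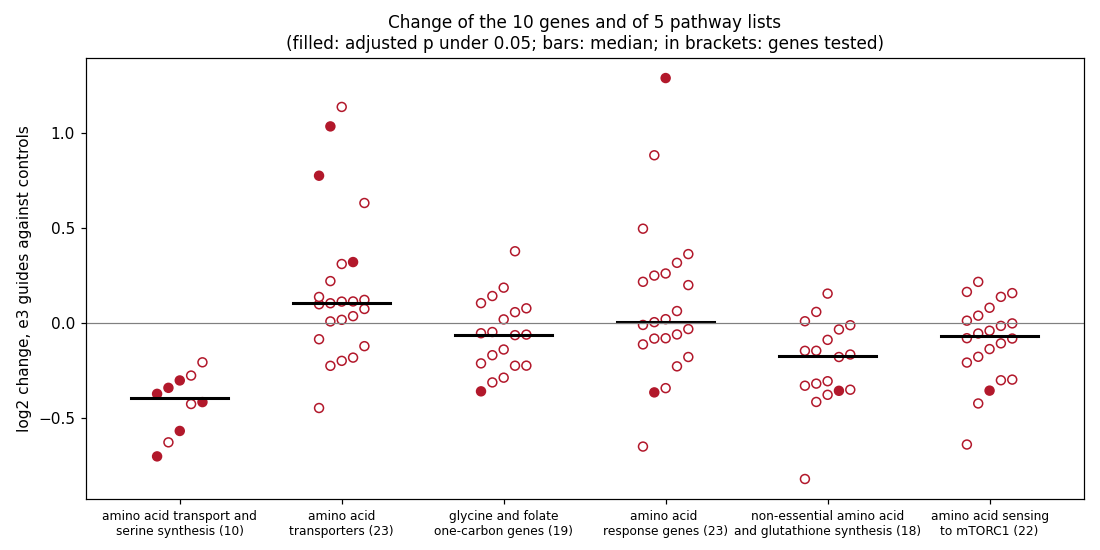
Log2 change of the e3 guides against the controls (vertical axis) for the 10 genes and for the tested genes of 5 pathway lists; each point is a gene, filled where the adjusted p was under 0.05, and bars are medians. The 10 genes all lie below 0 with a median of -0.40, whereas the list of further transporters has its median at 0.10 and its 3 called genes above 0.

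The genes most like the members over the 8 libraries were sought by Pearson's r of log2(RPKM + 1), as a description over 4 groups of 2, so that differences between the groups make up much of each r. For SLC7A5 the nearest was RNASEH2C, a subunit of RNase H2 (r = 0.981), and for SLC3A2 it was RAB25, an epithelial small GTPase gene (r = 0.991). SLC1A5 was most like EIF4EBP1, an inhibitor of cap-dependent translation (r = 0.987). PSAT1 was most like the nucleolar gene RSL1D1 (r = 0.991), PSPH like the nucleolar gene SURF6 (r = 0.974), and SHMT2 like DFFA, an inhibitor of the apoptotic nuclease (r = 0.994). RSL1D1, for example, had 42.4 and 37.2 RPKM with guide 2, 38.5 and 38.3 RPKM with guide 1, 57.5 and 56.3 RPKM with the non-targeting guide, and 51.0 and 43.9 RPKM without a guide, the same order of groups as PSAT1. ASNS was most like C20orf111 (r = 0.976), PHGDH like XPNPEP3 (r = 0.968) and MTHFD2 like JTB (r = 0.960). Each is the highest r among all genes searched and says nothing of shared function.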

How the data were processed

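Poly(A) RNA was sequenced from 8 libraries, grouped by the sample titles; the design text gives the name used in the table for the non-targeting guide. The values deposited by the authors are RPKM, per the file headers. Per the submitters' processing notes, hg19 was a build and Cufflinks a tool used. Their roles, the aligner, the strand setting and the annotation: not given in the sources used here. Without a stated strand, reads of SLC7A11 and its antisense gene cannot be told apart.

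Reads behind each value were recovered as whole numbers, with a tolerance of 0.005 reads, at a gene model length that gave whole numbers; the depth came from single-exon genes of GENCODE release 29. No count test was run on them.

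Tests used limma 3.58.1 in R 4.3.3, with a variance trend, on log2(RPKM + 1), keeping genes whose mean reached 1 RPKM. The e3 guides against both controls, or against each control alone, used models with 2 groups. Each guide alone, and guides or controls against each other, used a model with 4 groups. Ratios were tested by exact permutation (scipy 1.17.1). Of these steps, the limma tests were tried on simulated data.

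The members, pathway lists and markers were chosen with earlier results of these data known. Named were the 10 members, MYC, ATF4, up to 4 genes of each pathway list by smallest p, and per member the gene with the highest Pearson r, passing over clone names, ribosomal protein genes, pseudogenes and GATSL genes; 1 of the genes so chosen is not reported here. Alternatives were a pseudocount of 0.1, other filters, median-ratio and quantile scaling, a replicate block, group means, an estimated correlation, and leaving out each library.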

Additional observations from a re-analysis of the deposited data

How the results depend on the processing

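Comparing e3 guides with controls, 11 of the 16 alternatives can move a log2 change (the filters, the block, group means and the correlation leave it as it is), and in those all 110 values of the 10 genes were negative, but calls were often lost. SLC7A5 was called in 15 of its 16 alternatives (adjusted p from 0.000395 to 0.407, the highest with group means) and SHMT2 in 10 (0.0128 to 0.414). The number of the 10 called was 6 as reported, beside 5.2% of genes tested in either direction. It was 1 with no filter (0.337% of 52576 genes), 3 with median-ratio scaling (4.88%), 0 with group means (0.00715%) and 1 with an estimated correlation (1.83%). With group means 7 had an unadjusted p under 0.05 in limma, beside 10.9% of genes tested. With a library left out the number called was 1 (without the second of guide 2 or of guide 1), 2 (without the first of either, or either non-targeting library), 3 (without the second no-guide library) or 4 (without the first), beside 1.29% to 4.15% of genes tested. With no filter, guide 2 had 2 called against 7 (2.27% and 14.5% of genes tested) and guide 1 had 3 against 5 (1.22% and 8.99%). The e3 guides against no guide had 2 against 4 (2.94% and 16.7%). With a library left out, the counts were 1 to 6 for guide 2, 1 to 6 for guide 1, 0 to 5 for e3 guides against non-targeting libraries (0 without either non-targeting library), 3 to 4 against no guide, and 0 to 2 between non-targeting and no guide, where a minimum mean of 5 RPKM left 0, since SLC7A11 was not tested there. For each of these comparisons, every fit with a library left out also called a smaller share of all genes tested than the fit with all libraries. The replicate numbers share no source in the labels, and deviations of same-numbered libraries had correlations of -0.022 to 0.014, so they share only a number. With a replicate block 2 of the 10 were called for the e3 guides against the controls, beside 2.77% of genes tested. The log2 ratio of SLC7A5 to SLC3A2 was -0.36 against the non-targeting guide alone and -0.46 against no guide alone (exact permutation p = 0.133 each, above the threshold with so few libraries), and -0.46 to -0.37 with a library left out (exact permutation p = 0.0571, the smallest possible). That of SLC7A11 to SLC3A2 reversed to 0.12 against the non-targeting guide alone, and was -0.69 to -0.17 with a library left out. For guide 2 against guide 1, differences that changed sign with a library left out ran from -0.16 to 0.041 for SLC3A2, -0.027 to 0.15 for ASNS, -0.23 to 0.038 for PHGDH, -0.058 to 0.11 for PSAT1, -0.28 to 0.25 for PSPH and -0.071 to 0.080 for SHMT2. Between the controls, non-targeting minus no guide, SLC3A2 was -0.00882 with quantile normalization and -0.059 to 0.14 with a library left out, and PHGDH -0.14 to 0.019. MTHFD2 with the e3 guides against no guide ran from -0.21 to 0.016. The cause of these changes was not tested. ASNS and PSPH had the fewest reads and so the largest counting error. The largest standard error for the e3 guides against the controls was that of SLC7A11 (0.24, beside 0.12 for ASNS and for PSPH).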
